A study of Mus musculus with 19 samples.

Results

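Neural stem and progenitor cells (NSPs) and the cells that they became after 1 week of astrocytic differentiation were compared by ATAC-seq, which reads out open chromatin through the sites where a transposase can insert. The comparison used 7 of the 19 libraries of the series, 4 of 1 week and 3 of NSPs. The NSPs were taken from the ventricular zone of single C57BL/6J mouse embryos at embryonic day 14 and grown as free-floating neurospheres with EGF. The 1 week cells came from such NSPs, plated and kept without EGF in medium with serum, and received no TNF. All cells were wild type. The groups thus differed in age of culture, adhesion, serum and growth factor at once, and the labels do not say that replicate libraries were separate cultures. The study's methods speak of independent biological experiments for its data in general, without tying these libraries to them, so the p-values may measure technical spread alone. Libraries of untreated cells at 24 h and 72 h are given beside some of the results.

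Astrocytes arise late in the development of the forebrain, when the progenitors that line the ventricle stop making neurons and turn to glia. Notch signalling, which acts through the DNA-binding protein RBPJ and the repressors Hes1 and Hes5, keeps progenitors undifferentiated, and EGF keeps them dividing in culture. Differentiated astrocytes clear glutamate, buffer potassium, carry lipids and express the intermediate filament gene Gfap. In bulk libraries, a smaller share of cells with an open region and a less open region in each cell cannot be told apart.

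The table held 90154 peaks. Following the rule of this comparison, 1103 peaks with 3 reads or fewer in all 10 libraries whose names carry the tag Luc were left out. These were the libraries of 72 h, with and without TNF, and of 1 week, whereas the 9 libraries of NSPs and 24 h had no tag. At 212 of the peaks left out, each untagged library had 20 or more reads, and at 783 each untagged library also had 3 or fewer. After a filter on low values 88688 peaks were tested, and 363 peaks that the rule kept were not. The tag and the group cannot be told apart between 1 week and NSPs. For this reason the 2 steps that lie within a tag, 24 h against NSPs and 1 week against 72 h, or values at 24 h and 72 h, are given for some of the peaks described. The other peaks have the 1 week against NSP value alone, where the tag and the group stay confounded. The opposite pattern, 3 reads or fewer in every untagged and 20 or more in every tagged library, was found at 4 peaks, all on patches or unplaced scaffolds and all called higher at 1 week.

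The NSP libraries had 28636739 to 39349111 reads in peaks and the 1 week libraries 9640256 to 25165008, with replicate 3 the shallowest. Replicates differed by more than counting noise, so none was a second copy of another. NSP replicate 1 stood apart. Its Spearman correlation across peaks was 0.923 and 0.913 with the other NSP libraries, which correlated with each other at 0.982. The 1 week libraries correlated with each other at 0.954 to 0.978 and with the NSP libraries at 0.569 to 0.641. For some of the calls and values below that changed without NSP replicate 1, both values are given. The others are given from the fit with all libraries alone, and a single value does not mean that it was unaffected. For example, the median of the TEAD and YAP list was 0.44 with all libraries and 0.59 without NSP replicate 1. That of the oligodendrocyte markers was -0.80 and -1.02, and the log2 fold change of Npas3 -0.67 and -0.46.

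The sequences below show promoters to which the results return. Each is the 150 bases before the annotated start of a gene, 5′ to 3′ on the strand of the gene, from RefSeq (build GRCm38.p6), and each start lay inside a tested peak. The first set shows a progenitor gene that lost accessibility and genes of contractile, junction and filament proteins that gained it. The capitals mark, on either strand, the RBPJ core TGGGAA in Hes5 (chr4:154960773-154960922, plus strand) and Gfap (chr11:102897201-102897350, minus strand), the TEAD core GGAATG in Tpm1 (chr9:67049214-67049363, minus strand) and the AP-1 element TGANTCA in Gja1 (chr10:56377150-56377299, plus strand). The stretch of Tpm1 also holds the RBPJ core, which is not marked there.
Hes5: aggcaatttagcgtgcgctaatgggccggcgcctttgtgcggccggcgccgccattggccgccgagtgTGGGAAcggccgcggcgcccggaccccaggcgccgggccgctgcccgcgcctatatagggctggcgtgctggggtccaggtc
Gfap: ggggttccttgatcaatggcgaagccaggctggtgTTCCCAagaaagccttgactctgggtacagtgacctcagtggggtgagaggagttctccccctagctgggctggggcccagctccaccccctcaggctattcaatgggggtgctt
Tpm1: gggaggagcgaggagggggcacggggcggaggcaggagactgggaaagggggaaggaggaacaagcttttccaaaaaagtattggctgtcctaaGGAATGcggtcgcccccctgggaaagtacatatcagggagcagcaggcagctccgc
Gja1: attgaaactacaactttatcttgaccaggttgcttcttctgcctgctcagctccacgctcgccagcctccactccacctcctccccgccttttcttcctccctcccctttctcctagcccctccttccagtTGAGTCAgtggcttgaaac

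The marked elements began 82 bases before the start of Hes5, 115 before that of Gfap, 56 before that of Tpm1 and 19 before that of Gja1. Among 32851 RefSeq promoters, the same 150 bases held the RBPJ core in 13.1%, the TEAD core in 7.59% and the AP-1 element in 4.24%. A match is a description of the letters and not a bound site.

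Accessibility had risen by 1 week at 29967 of the 88688 peaks tested (33.8%) and had fallen at 29644 (33.4%). Peaks were called in limma-trend, on log2(value + 1) over all 19 libraries, where the p-value after Benjamini-Hochberg adjustment was below 0.05. Values are normalised reads per peak. Together 67.2% of the tested peaks were called. The libraries of the groups did not overlap at 26629 of the peaks called higher (30.0% of those tested) and at 25987 of those called lower (29.3%). Gains of a log2 fold change of 2 or more outnumbered losses of that size under all 22 alternatives tried. A log2 fold change of 2 or more was found at 9425 peaks called higher (10.6%) and 7339 called lower (8.28%), one of 3 or more at 4543 (5.12%) and 1864 (2.1%), and one of 4 or more at 1781 (2.01%) and 261 (0.294%). At a log2 fold change of 1 or more, 18307 were higher (20.6%) and 19132 lower (21.6%). The order at that size is not given as a result, since cyclic loess gave 19071 higher and 16922 lower, and a mean of at least 50 reads 12243 and 11779. The rule of this comparison left out peaks that were low at 1 week, so it took out losses rather than gains. Of 231 left-out peaks that passed the filter on low values, 226 were called lower and 0 higher. With them kept, losses of 2, 3 and 4 or more numbered 7564, 2082 and 468 instead of 7339, 1864 and 261. The gains of these sizes did not change.

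The peaks that gained by a log2 fold change of 2 or more started low. Their median value, averaged over libraries, was 13.1 normalised reads in NSPs. It was 56.7 in the 24 h libraries, 77.6 in those of 72 h and 123 in those of 1 week. The peaks that lost as much had medians of 104, 50.2, 33.8 and 17.3 in the same order. In both classes the first 24 h, within the untagged libraries, and the step from 72 h to 1 week, within the tagged ones, went the same way as the whole comparison. Peaks not called had medians between 83.0 and 88.0 at all 4 times. The classes were chosen on NSPs and 1 week, so only the values at 24 h and 72 h are free of the choice.

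**Figure D1:**
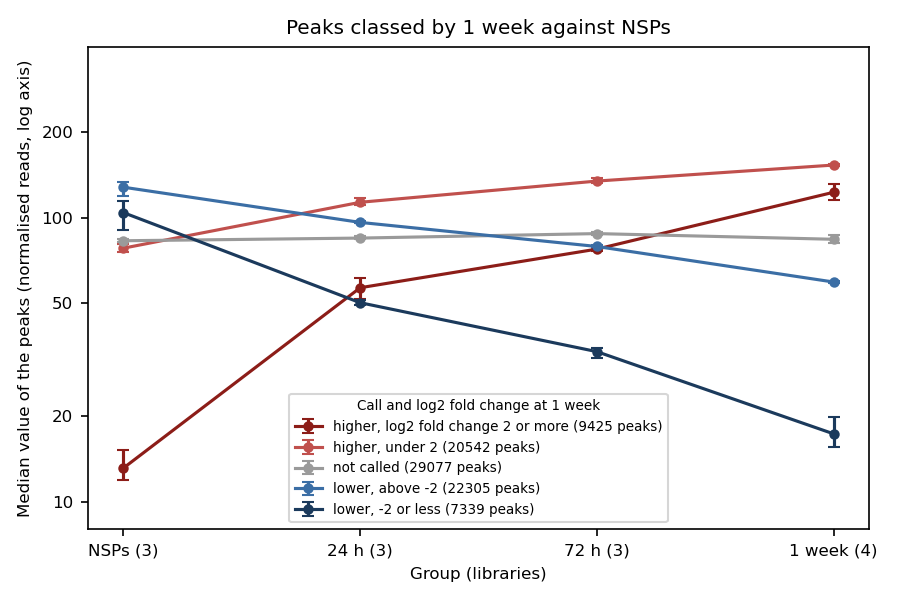
Median value of the peaks in 5 classes of the 1 week against NSP comparison (normalised reads, log axis) in NSPs, 24 h, 72 h and 1 week. Points are the mean of the library medians and bars their lowest and highest. The class that gained most runs from 13.1 through 56.7 and 77.6 to 123, and the class that lost most from 104 through 50.2 and 33.8 to 17.3.

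The changes were larger away from gene starts. A gene-start peak had its centre within 1 kb of the start of a protein-coding gene, or of either end of the gene for the 4408 of 21900 genes whose start was not in the promoter table. Of 13441 gene-start peaks tested, 3390 were called higher (25.2%) and 3724 lower (27.7%), together 52.9%. Of 75247 peaks elsewhere, 26577 were called higher (35.3%) and 25920 lower (34.4%), together 69.8%. With a log2 fold change of 1 or more, 494 gene-start peaks were higher (3.68%) and 1097 lower (8.16%), whereas elsewhere 17813 were higher (23.7%) and 18035 lower (24.0%). With one of 2 or more, 158 gene-start peaks were higher (1.18%) and 225 lower (1.67%), against 9267 (12.3%) and 7114 (9.45%) elsewhere. At a size of 3 or more the shares at gene starts were 0.342% and 0.253%, against 5.98% and 2.43% elsewhere, and at 4 or more 0.126% and 0.0298% against 2.34% and 0.342%. Gene-start peaks made up 15.2% of the peaks tested but 1.68% of those higher and 3.07% of those lower by a log2 fold change of 2 or more. The median distance to a gene start was 42.9 kb for such gains, 46.5 kb for such losses and 26.1 kb for all peaks tested.

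The balance at gene starts depended on the scaling and on 1 library. Higher calls made up 47.7% of the calls at gene starts. After cyclic loess, with 2537 higher and 4949 lower, they made up 33.9%, and after scaling to total reads, with 2867 and 4429, 39.3%. Without NSP replicate 1 the counts were 4119 and 3427, or 54.6% higher. Neither direction is therefore given for gene starts as a whole.

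**Figure D2:**
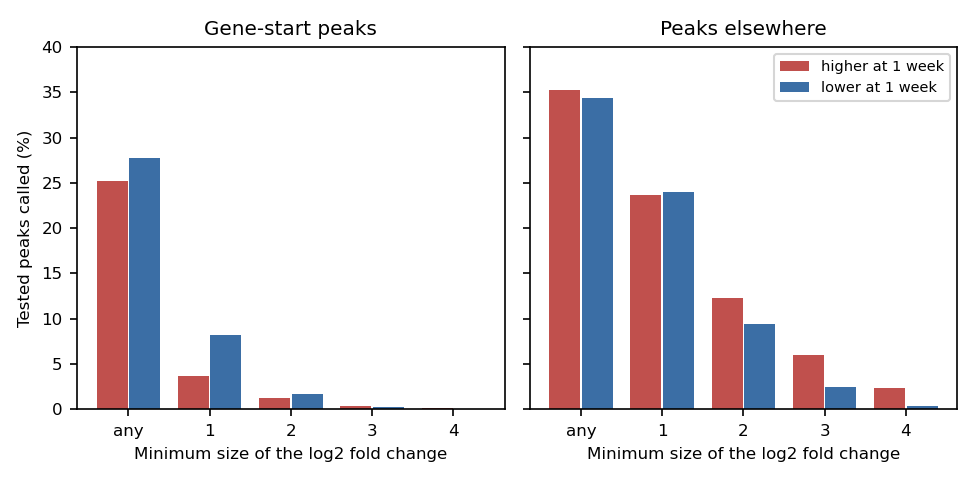
Percent of tested peaks called higher or lower at 1 week, for any size of change and for a log2 fold change of at least 1, 2, 3 or 4, at 13441 gene-start peaks and 75247 peaks elsewhere. At a log2 fold change of 1 or more, 3.68% and 8.16% of gene-start peaks and 23.7% and 24.0% of the others are called higher and lower.

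The 6 gains with the smallest p-values, of peaks at least 100 kb apart whose libraries did not overlap, included no gene-start peak. In Gdpd5, which encodes a membrane glycerophosphodiesterase, a peak on chromosome 7 (99403430 to 99403930) had 12.3, 12.7 and 9.97 normalised reads in the NSP libraries and 862, 872, 1003 and 1047 in the 1 week libraries. Its log2 fold change was 6.23 ± 0.13 (SE, limma adjusted p = 1.5e-24), with 3.71 from NSPs to 24 h and 1.00 from 72 h to 1 week. In Sdk2, which encodes a synaptic adhesion protein, a peak on chromosome 11 (113960290 to 113960790) went from 24.6 ± 3.45 (SD, n = 3) to 1645 ± 207 (n = 4). Peaks nearest to Arl4c, a small GTPase, to Tcim and to Celf4, an RNA-binding protein, rose by log2 fold changes of 6.05, 6.83 and 6.82. In these 5 peaks both within-tag steps were called in the same direction. That their libraries did not overlap was a condition of their choice. Each step shares NSPs or 1 week with the comparison that chose the peaks, so neither step is free of that choice. The sixth lay on a patch sequence and was 1 of the 4 peaks that every untagged library lacked. It had 1 read in each NSP library, 1.28 ± 0.174 normalised reads at 24 h and 1238 ± 130 at 72 h, so most of its gain fell between the untagged and the tagged libraries.

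The losses with the smallest p-values included the start of Hes5, the Notch effector whose promoter is shown above. Its peak on chromosome 4 (154960534 to 154961034) had 2209, 1809 and 1910 normalised reads in NSPs and 86.4, 74.0, 90.2 and 121 at 1 week. The groups were far apart, with a log2 fold change of -4.41 ± 0.15 (SE, limma adjusted p = 1.4e-20), and libraries of 24 h (744 ± 134) and 72 h (198 ± 22.6) lay between them. All 4 peaks at Hes5 were called lower, by log2 fold changes of -0.37 to -4.41. The other losses of this group lay away from gene starts. They were near Cst3, which encodes the protease inhibitor cystatin C (714 ± 82.3 to 33.1 ± 3.84), in Smoc1, a secreted matrix protein (721 ± 39.4 to 78.7 ± 2.25), in Xylt1, which starts glycosaminoglycan chains (2323 to 2773 in NSP libraries and 208 to 243 at 1 week), and nearest to Kiz (2004 ± 112 to 148 ± 14.9) and Traf3ip2 (1485 ± 118 to 160 ± 12.1). For Xylt1 the step from 72 h to 1 week was -0.06 and not called (adjusted p = 0.74), while 24 h against NSPs was -2.51.

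Among gene-start peaks, the gains with the smallest p-values began from low values. A peak at 1 end of Aurkb, the gene of a mitotic kinase, rose from 2.80 ± 0.133 to 406 ± 27.2 (log2 fold change 6.74 ± 0.18, SE). The direction of Aurkb was not in the promoter table, and the peak at its other end had a log2 fold change of -0.22 and was not called (-0.34 without NSP replicate 1, adjusted p = 0.033). Crb2, an apical polarity gene, rose from 58.3 ± 18.4 to 1135 ± 83.2, and Palm3, of the paralemmin family, from 9.96 ± 0.645 to 466 ± 86.1. The olfactory receptor gene Olfr1344 and the predicted gene Gm10277 rose by log2 fold changes of 5.05 and 4.74, each at an end of the gene that may not be its start. Among the losses, Kcnab2, a potassium channel subunit, fell from 899 ± 229 to 48.4 ± 4.17 and Prkar1a, a regulatory subunit of protein kinase A, from 445 ± 49.2 to 44.4 ± 11.7. Tmem229a, Tacr1, the receptor of substance P, and Spag9, a kinase scaffold, fell by log2 fold changes of -2.27, -2.79 and -2.11. That the libraries of the groups did not overlap at these peaks was a condition of their choice.

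**Figure D3:**
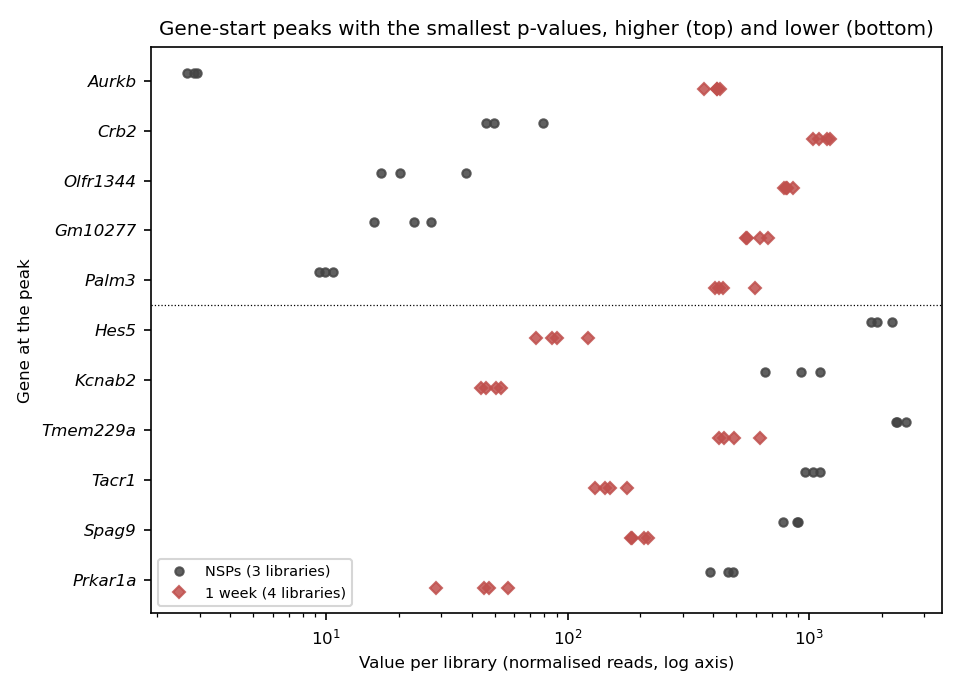
Value per library (normalised reads, log axis) of 11 gene-start peaks with the smallest p-values, 5 higher and 6 lower at 1 week, among calls whose libraries did not overlap. Circles are the 3 NSP libraries and diamonds the 4 libraries of 1 week. Aurkb goes from 2.80 to 406 on average and Hes5 from 1976 to 93.0.

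The markers that the study used were read at their gene-start peaks. Gfap, the filament gene of astrocytes, had 186, 75.8 and 61.1 normalised reads in NSPs and 248, 249, 255 and 280 at 1 week, a log2 fold change of 1.43 ± 0.21 (SE, limma adjusted p = 5.6e-07) and of 1.90 without NSP replicate 1. It was higher at 24 h (489 ± 29.4) and 72 h (529 ± 31.6) than at 1 week, and the step from 72 h to 1 week was -1.03 (adjusted p = 0.00026). Of the 5 peaks in or near Gfap, 4 were called higher, and the one with the most reads, 1341 bases before the start, rose from 1852 to 2463. Gpld1, a phospholipase gene enriched in astrocytes, rose from 141 ± 7.73 to 529 ± 65.8 (log2 fold change 1.89). Gja1, the gap junction gene connexin 43, rose by 0.73, although 1 week replicate 3 at 125 lay below NSP replicate 1 at 129, and by 1.00 without that NSP library. Slc1a3, a glutamate transporter, rose by 0.39 (adjusted p = 0.013), a call that was lost without 1 week replicate 4 (adjusted p = 0.053). Of 8 peaks in or near Slc1a3, 2 were called higher and 4 lower, with a median of -0.41.

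The proliferation and stem cell markers of the study fell by log2 fold changes under 1. Mki67 fell from 704 ± 79.4 to 396 ± 28.7 (log2 fold change -0.83), Egr1 by a log2 fold change of -0.56 and Ccnb1 by -0.31, the last not past the test once reads were thinned to the shallowest library (adjusted p = 0.061). All 3 were lower at 72 h than at 1 week. Kcnj10, the potassium channel of astrocytes, was at 1208 ± 145 and 1380 ± 74.7 (log2 fold change 0.20, adjusted p = 0.079), and past the test without NSP replicate 1 (0.29, adjusted p = 0.012). Cd44 was at 475 ± 89.8 and 402 ± 66.4 (log2 fold change -0.24, adjusted p = 0.12), and past the test without NSP replicate 1 (-0.37, adjusted p = 0.014). In or near Cd44, however, 3 of 7 peaks were called higher and 1 lower, with a median of 0.19. Around Kcnj10, 4 of 9 peaks were called higher and 1 lower, with a median of 0.20. No gene-start peak was tested for Slc1a2, Slc14a1 or Clcf1. Around Slc1a2, the main glutamate transporter, 8 of 13 peaks were called higher and 3 lower. Those higher reached a log2 fold change of 2.01, at position 56930 from the start in the promoter table, and those lower -2.90, at position -55595.

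The counts of the gene lists are read against the 25.2% of all gene-start peaks called higher and the 27.7% called lower. Genes of astrocyte function did not move together at their starts. Of 33 gene-start peaks of the list, 8 were called higher (24.2%), 11 lower (33.3%) and 14 neither, shares near those of all gene-start peaks. Their median was -0.23, against -5.3e-05 over all gene-start peaks tested. Without NSP replicate 1 the median was -0.07, with 11 higher. Clu, the lipoprotein gene clusterin, had 181, 196 and 185 normalised reads in NSPs and 654, 680, 645 and 646 at 1 week (log2 fold change 1.80 ± 0.12, SE), and all 6 peaks in or near it were called higher. These values of Clu were read at an end of the gene that may not be its start. Slc39a12, a zinc transporter, rose from 113 ± 7.30 to 424 ± 19.9 and Mlc1, a membrane protein of astrocyte endfeet, from 1322 ± 368 to 2494 ± 164. S100b, a calcium-binding protein, fell from 562 ± 116 to 178 ± 7.54. Over all 243 peaks in or within 10 kb of these genes, 100 were higher and 70 lower, which is 41.2% and 28.8% against 33.8% and 33.4% of all peaks. For Aqp4, the water channel of endfeet, 1 of 2 peaks was called, with a log2 fold change of 1.24.

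Genes that keep or mark progenitors lost accessibility more often than they gained it. In the neural stem and progenitor list 3 of 23 gene-start peaks were higher (13.0%, against 25.2% of all) and 14 lower (60.9%, against 27.7%), with a median of -0.48. Beside Hes5, the largest losses were at Hmga2, a chromatin protein of young progenitors (315 ± 64.7 to 60.1 ± 4.08), at Dll1, a Notch ligand (1141 ± 390 to 301 ± 35.8), and at Igf2bp2, an RNA-binding protein (109 to 31.0). Prom1 and Msi1, also progenitor genes, rose by log2 fold changes of 1.26 and 0.92. Sox2 and Nes, the general NSP markers, had log2 fold changes of 0.03 and 0.14 at their gene-start peaks and were not called. Nes had -0.05 without NSP replicate 1. Of 3 peaks in or near Sox2, however, 2 were called lower and 0 higher, with a median of -1.37. Of 8 in or near Nes, 3 were higher and 2 lower. The 6 gene-start peaks used to check the NSP label gave 1 higher and 2 lower, so the NSP markers did not all fall at these peaks. Of 43 peaks in or near the 7 genes of this check, 9 were higher (20.9%) and 20 lower (46.5%). Of all peaks tested, 33.8% were higher and 33.4% lower.

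Neurogenic genes had no gain at their starts. Of 18 gene-start peaks 13 were lower (72.2%, median -0.89). Of 73 peaks in or near these genes 47 were lower (64.4%) and 7 higher (9.59%), against 33.4% and 33.8% of all peaks tested. Myt1, a zinc finger gene of new neurons, had 53.2, 81.0 and 82.4 normalised reads in NSPs and 15, 7.79, 2.20 and 8.58 at 1 week. Insm1 and Neurod1, regulators of neuronal differentiation, fell from 173 ± 13.7 to 35.1 ± 3.18 and from 453 ± 183 to 108 ± 17.2. Neurod1 was highest in NSP replicate 1, at 664. These 3 were the largest called losses of the list. In all 3 every 1 week library lay below every NSP library, as it did at 29.3% of all tested peaks, which were called lower without overlap.

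Regulators of gliogenesis were called about as often as all gene-start peaks. Of 15 gene-start peaks, 3 were higher (20.0%) and 4 lower (26.7%), with a median of -0.04, and 0.08 without NSP replicate 1. Stat3, the effector of astrocytic cytokines, rose by 0.41 at its gene-start peak, by 0.18 with cyclic loess and by 0.57 without NSP replicate 1. Of 4 peaks in or near Stat3, 2 were called higher and 2 lower, with a median of -0.46. Id1, an inhibitor of proneural factors, rose by 0.36, a call that was lost without NSP replicate 1 (0.24, adjusted p = 0.051). Its relative Id4 had 0.35 (adjusted p = 0.036), was past the test at 0.67 without NSP replicate 1 and not past it at 0.16 without NSP replicate 2, and lost the call in 13 of 22 alternatives. With cyclic loess the list had 1 peak higher instead of 3. Nfib, a nuclear factor I gene, fell from 976 ± 339 to 404 ± 28.9, Sox8 by a log2 fold change of -0.69 and Npas3 by -0.67. Many peaks surround these genes, and of 59 in or near Nfia 16 were higher and 24 lower.

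The cell cycle list gave 4 higher (13.8%) and 11 lower (37.9%) of 29 gene-start peaks. Its median was -0.20, and -0.11 without NSP replicate 1 and -0.31 with cyclic loess, where 16 were lower. The tilt to losses was not found over the 103 peaks in or within 10 kb of these genes. Of these, 30 were higher and 30 lower, 29.1% each, against 33.8% and 33.4% of all peaks tested. Ccnd1, which encodes cyclin D1, fell from 440 ± 66.2 to 152 ± 24.9, Rrm2, a subunit of ribonucleotide reductase, by a log2 fold change of -0.75, and Mcm7, a helicase subunit whose peak is shared with Ap4m1, rose by 1.05. Targets and feedback inhibitors of EGF receptor signalling, the pathway that the neurosphere medium activates, were lower at 15 of 20 gene-start peaks (75%) and higher at none (median -0.44). Beside Ccnd1 the largest losses were at Etv1, an ETS factor (282 ± 10.2 to 129 ± 17.9), Phlda1 (-0.95) and Spry2, an inhibitor of the pathway (-0.90). Ccnd1 had already fallen to 154 in the 24 h libraries and stood at 118 in those of 72 h. Of 99 peaks in or near the list, 56 were lower (56.6%) and 14 higher (14.1%), against 33.4% and 33.8% of all peaks tested.

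Genes of contractile and matrix proteins gained at 12 of 26 gene-start peaks (46.2%) and lost at 6 (23.1%). The median was 0.13, and -0.05 with cyclic loess and 0.21 without NSP replicate 1. Ccn2, a target of YAP and TEAD that is also named CTGF, had 68.3, 43.8 and 50.5 normalised reads in NSPs and 487, 511, 625 and 470 at 1 week, with a log2 fold change of 3.26 ± 0.16 (SE, limma adjusted p = 3.6e-17). Tagln, an actin-binding protein of smooth muscle, rose from 17.4 ± 6.79 to 91.0 ± 24.5, Tpm1, a tropomyosin whose promoter is shown above, from 85.9, 140 and 148 to 384, 402, 312 and 409, and Acta2, smooth muscle actin, from 47.0 ± 17.7 to 135 ± 9.57. Ccn2 and Tagln were read at an end of the gene that may not be its start. Acta2 had reached 155 at 24 h, whereas Tpm1 was at 139 at 24 h and 159 at 72 h. The shared start of the collagen genes Col4a1 and Col4a2 fell by a log2 fold change of -1.28, Tnc, a matrix glycoprotein of progenitors, by -1.15 and Col6a1 by -0.81.

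The TEAD and YAP list gained at 6 of 10 gene-start peaks (60.0%) and lost at 1 (median 0.44). Tead4 rose from 129 ± 19.4 to 692 ± 39.9 at an end of the gene, and Ajuba and Amotl2, partners of the pathway, by 0.94 and 0.89. Tead2 fell from 270 ± 23.4 to 102 ± 8.61. Yap1 itself had a log2 fold change of -0.03 at its start and was not called, and 5 of 7 peaks in or near it were lower and 1 higher. Around Tead1, 13 of 27 peaks were lower and 6 higher. In the AP-1 list 1 of 13 gene-start peaks was higher, that of Mafk (0.79), and 2 were lower, those of Fos (-0.81) and Bach1 (-0.31). The call of Bach1 was lost in 6 alternatives, among them the fit without NSP replicate 1 (-0.08, adjusted p = 0.52). The count of losses ranged from 1 to 5 over the settings tried.

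Reactive astrocyte genes gained at 6 of 21 gene-start peaks (28.6%, near the 25.2% of all) and lost at 3 (14.3%), with a median of 0.14, and 0.07 after scaling to total reads. In or within 10 kb of these genes, 41 of 99 peaks were higher (41.4%) and 16 lower (16.2%). Over all peaks tested the shares were 33.8% and 33.4%. Tm4sf1, a membrane protein, rose from 298 ± 34.1 to 1042 ± 32.7 and Aspg, an asparaginase, by a log2 fold change of 1.21. C3, a complement component, stayed low in reads but rose from 9.93, 3.77 and 7.31 in NSPs to 28.2, 28.8, 28.6 and 19.3 at 1 week. Lcn2, lipocalin 2, rose by 1.09 from 8.10. That call was lost in 5 alternatives, among them the fit without NSP replicate 3 (adjusted p = 0.17), and the log2 fold change ran from 0.64 to 1.72 over the alternatives. Timp1, a protease inhibitor, fell from 59.1 ± 12.2 to 12.3 ± 6.63. Genes of lipid transport gave 5 higher (26.3%) and 6 lower (31.6%) of 19, near the shares of all gene-start peaks, with a median of -0.11 and of 0.04 without NSP replicate 1. They ranged from Pltp, a phospholipid transfer protein (254 ± 18.6 to 608 ± 54.2), to Cd36, a fatty acid receptor (43.0 ± 3.71 to 16.5 ± 6.82).

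**Figure D4:**
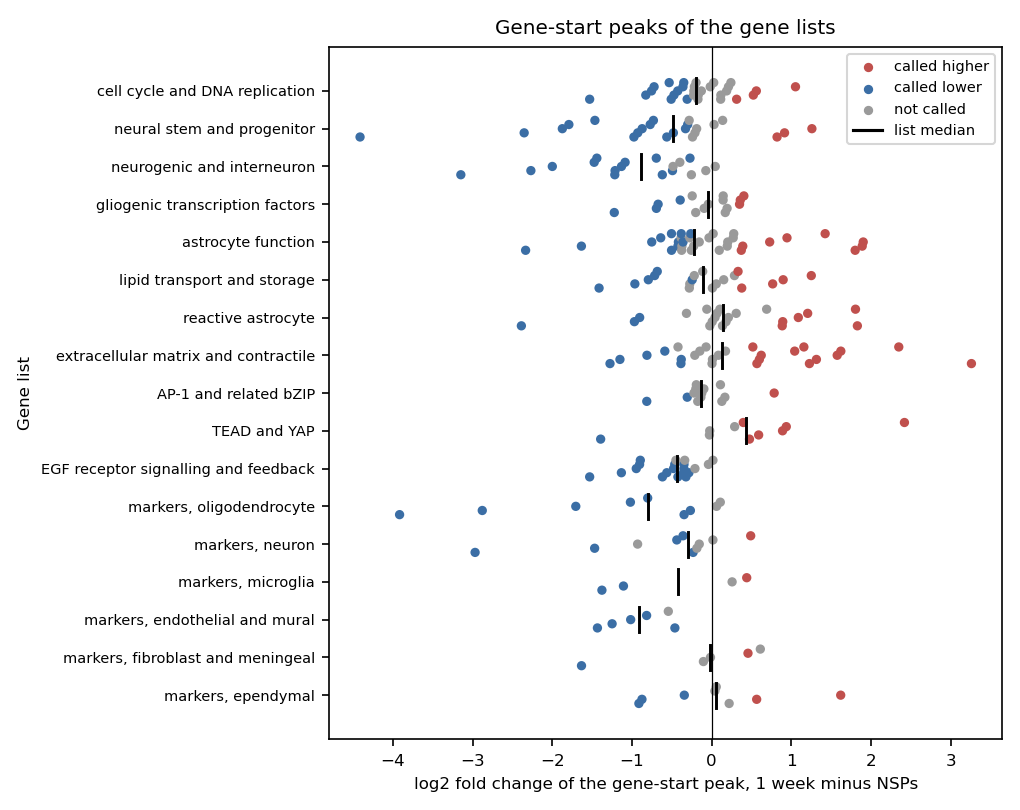
Log2 fold change of each gene-start peak in 17 gene lists, 1 week minus NSPs, with the list median as a bar. Red points are called higher, blue points lower and grey points neither. All 13 called peaks of the neurogenic list lie below 0, and 6 of the 7 called peaks of the TEAD and YAP list lie above it.

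Markers of the other cell types that neurosphere cultures could hold were read in the same way. Not all marker genes had a tested gene-start peak. Such a peak was found for 9 of 17 oligodendrocyte, 10 of 14 neuron and 6 of 16 endothelial and mural genes. It was found for 4 of 16 microglial, 5 of 14 meningeal and 8 of 13 ependymal genes. Oligodendrocyte markers were lower at 7 of 9 gene-start peaks and higher at none (median -0.80), and their summed value was 3999 to 4476 in NSP libraries and 1837 to 2050 at 1 week. Gpr17, a receptor of oligodendrocyte precursors, had 162, 63.1 and 69.1 normalised reads in NSPs and 11.5, 5.46, 6.6 and 1.07 at 1 week. Ugt8a, an enzyme of myelin lipids, fell from 394 ± 37.2 to 54.6 ± 17.9 and Olig2, the lineage regulator, from 1471 ± 177 to 449 ± 19.5. Neuron markers were lower at 5 (50.0%) and higher at 1 of 10 (summed value 2654 to 3077 and 2094 to 2498). The gain, that of Slc17a6, was lost in 9 alternatives, and 3 were lower without NSP replicate 3. Nefl, a neurofilament gene, went from 46.7 ± 11.8 to 5.19 ± 1.92. Endothelial and mural markers were lower at 5 of 6 and higher at none (1071 to 1120 and 526 to 648). Over all 67 peaks in or within 10 kb of the genes of that list, 28.4% were higher and 34.3% lower. Of all peaks tested, 33.8% were higher and 33.4% lower. For the oligodendrocyte list the shares were 27.2% and 44.4% of 81 peaks, and for the neuron list 27.0% and 48.0% of 100. Microglial markers were higher at 1 and lower at 2 of 4 (899 to 915 and 962 to 1149), meningeal markers higher at 1 and lower at 1 of 5 (1759 to 2174 and 1481 to 1677) and ependymal markers higher at 2 and lower at 3 of 8 (5604 to 7862 and 6355 to 7187). The lowest value in the table is 1 read, so a marker peak at 0 cannot be told from 1 read. The part of other cell types in the gene-level results was not tested.

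At some genes all or nearly all tested peaks in the gene or within 10 kb of it changed the same way. Of 2285 genes with 8 or more tested peaks inside or within 10 kb, 7 had all of them called higher and 5 all lower, and the median gene had 33.3% higher and 35.7% lower. All 13 peaks of Smad6, an inhibitor of BMP signalling, were higher, with log2 fold changes of 0.78 to 4.14, and all 10 of Stard8, which encodes a GTPase-activating protein, with 0.27 at the start and up to 3.91 inside the gene. Capns1, Cbx7, Pdgfb and Msi1 had all 8 of their peaks higher, as had Atp2b4 11 of 12. All 8 peaks of Inka2, an inhibitor of PAK4, were lower, with -0.48 at the start and down to -4.16 within it. Spsb4 and Pdzrn4 had all 9, Rims4 and Tmem164 all 8, and Adarb2 and Nxph1 11 of 12 peaks lower. Of the 10 peaks of Myt1, 9 were lower with log2 fold changes down to -4.91, and the one farthest from a start had 0.57 and was not called.

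**Figure D5:**
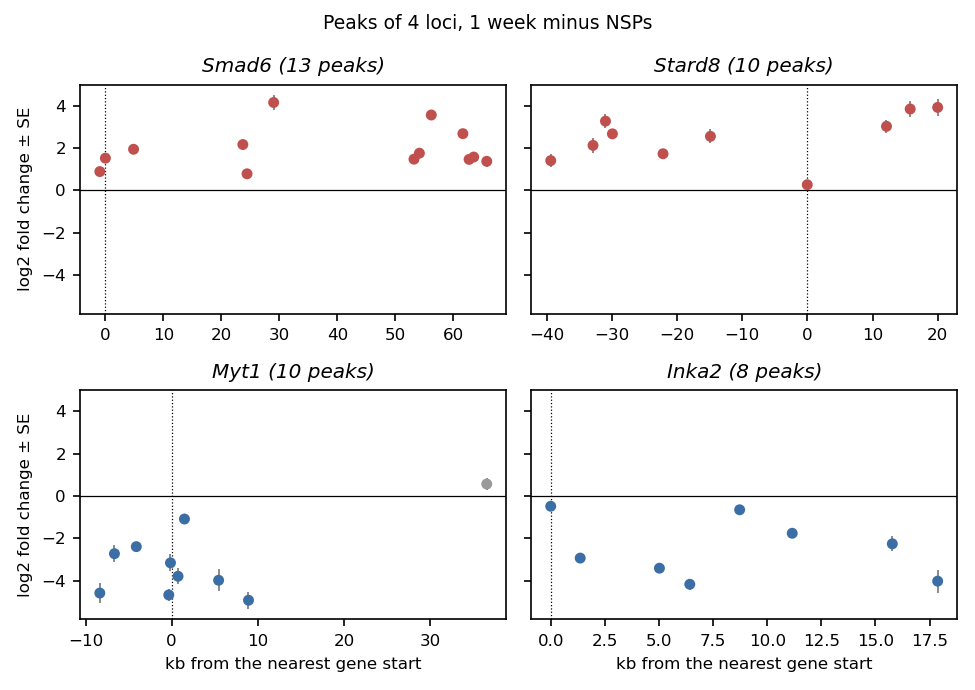
Log2 fold change with its SE (limma) of each tested peak in or within 10 kb of Smad6, Stard8, Myt1 and Inka2, against the distance in kb from the nearest annotated start of the gene, with positive values downstream. Red points are called higher, blue lower and grey neither. The 13 peaks of Smad6 and 10 of Stard8 lie above 0, and the 8 of Inka2 and 9 of the 10 of Myt1 below it.

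The promoters behind the gene-start calls differed in base composition over the whole window of the table, from 250 bases before the start to 50 after it, which is wider than the sequences printed. Of 8878 RefSeq promoters with the start inside a tested peak, the 193 whose peak was higher by a log2 fold change of 1 or more had a median GC content of 54.3% and 6 CpG pairs. The 552 that were lower by as much had 63.3% and 19, and all 8878 had 62.0% and 22. The AP-1 element was found in 17.1% of the first group, 5.43% of the second and 4.49% of all, and the TEAD core in 24.9%, 9.24% and 11.6%. The RBPJ core was found in 33.7%, 21.9% and 23.1%. Elements of STAT, NFI, E box and CArG type were also most frequent in the first group, so this was not particular to AP-1 and TEAD. They were found in 9.84%, 19.7%, 54.4% and 2.59% of it, against 6.52%, 11.5%, 42.6% and 1.19% of all. In the same wide window, all promoters of the table, in peaks or not, had 52.7% GC, 7 CpG pairs, the AP-1 element in 7.81% and the TEAD core in 14.7%. The RBPJ core was in 25.6% of them. These are descriptions, with no test. Slc39a12 (chr2:14388248-14388397, plus strand), which gained, and Ugt8a (chr3:125938653-125938802, minus strand), which lost, are printed with their CpG pairs in capitals to show the range. The first holds 3 pairs and the second 20, where the median of the 32851 promoters is 4 in these shorter stretches of 150 bases.
Slc39a12: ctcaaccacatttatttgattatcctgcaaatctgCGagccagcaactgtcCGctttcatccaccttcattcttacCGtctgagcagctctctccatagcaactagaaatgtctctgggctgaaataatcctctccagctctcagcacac
Ugt8a: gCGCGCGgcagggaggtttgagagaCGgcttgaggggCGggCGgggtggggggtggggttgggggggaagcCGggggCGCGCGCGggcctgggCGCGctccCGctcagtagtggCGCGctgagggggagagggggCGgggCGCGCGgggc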

How the data were processed

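ATAC-seq was analysed in mouse cells, with groups taken from the sample titles. Per the submitters' processing notes and the methods of the study, the authors checked reads with FastQC, trimmed them with Trim Galore, aligned them with Bowtie2 to mm10, dropped mitochondrial alignments (SAMtools), and called peaks (MACS2) outside blacklisted regions. Tool versions, the shift of reads for the transposase, the treatment of duplicates and the normalisation are not given in the sources used here. The authors deposited a signal per peak and library. Dividing a library by its lowest value gave whole numbers for 100% of peaks (tolerance 0.01 reads), so the reads behind each value were recovered. No value was under 1 read, so 0 and 1 read cannot be told apart.

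Peaks were kept by edgeR filterByExpr on the recovered reads (minimum count 10), which kept 88919 of 90154. Values were transformed as log2(value + 1), which understates changes of low peaks, and a limma-trend model (limma 3.58.1 in R 4.3.3) took in the 19 libraries, with 1 mean for each group and without covariates. Since the values were normalised, no count test was the main result. P-values were two-sided and adjusted over the 88919 peaks fitted. The script was tested on simulated data. Gene positions came from RefSeq tables of GRCm38.p6, and the peak table names no build.

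The peaks named were the 6 in each direction with the smallest p among calls without overlap of libraries, at most 1 per 100 kb, over all peaks and over gene-start peaks. To these were added the markers the study names, up to 3 called peaks each way per gene list, and the 8 genes with the highest share of peaks called each way. Further list members named with values were chosen after their values were seen. The members and lists were chosen with earlier results of these data known. Alternatives covered scaling, tool (edgeR 4.0.16, DESeq2 1.42.0), filter, pseudocount, depth and the libraries used. Same-numbered libraries of the 2 groups did not deviate together across peaks (correlations 0.014, 0.044 and 0.027), so the numbers were not taken as pairs. Values of some genes chosen by these rules are not reported here. Peaks were not assigned to exons, introns or UTRs.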

Additional observations from a re-analysis of the deposited data

Results flagged for a closer look

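The 4 libraries of 1 week were searched for a value far from the other 3 at the 287 peaks of the text and the gene lists, by the gap to the nearest value over the range (Dixon's 95% limit). It was found at 17 peaks, of which 15 are given here, and chance flags about 1 in 20. Replicate 3, the shallowest library, was high at Palm3 (594, the others 408 to 440), Slc15a2 (323), Scd2 (1270) and Snap25 (350), and low at Srebf1 (304) and Cxcl10 (81.4). Replicate 4 was low at C3 (19.3, the others 28.2 to 28.8) and high at Ptgds (291), Sp9 (151), Nfix (332), Spry1 (163) and Spred1 (860). Replicate 2 was high at Neurod4 (161). Replicate 1 was low at Fosb (466) and high at Batf3 (98.7). All values are normalised reads.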

How the results depend on the processing

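The count of peaks called higher lay between 22820 and 30809 and that of peaks called lower between 21041 and 31708 over 22 alternatives to the fit reported. With one library left out they lay between 27625 and 30809 and between 27563 and 29683. Asking for a mean of at least 50 reads left 66196 peaks and brought the losses of a log2 fold change of 1 or more from 19132 to 11779 and the gains from 18307 to 12243, fewer peaks being tested. At a log2 fold change of 4 or more, cyclic loess gave 2534 gains and 137 losses and a pseudocount of 8 gave 638 and 53. edgeR with TMM gave 29212 higher and 31517 lower and DESeq2 30046 and 30831. A fit with the replicate number as a block gave 28764 and 28447, and at gene starts 3060 and 3436. The numbers do not pair the libraries, so this is a fit with a shared number only. Of the 287 peaks of the text and lists, 1 changed direction with a call, that of Etv5, from a log2 fold change of 0.02 to -0.20 with cyclic loess. List counts moved by over 1.5 times in some settings for the gliogenic, AP-1, neuron, microglia, meningeal and ependymal lists. Without NSP replicate 1, the ependymal list had 4 peaks higher instead of 2, the AP-1 list 2 instead of 1 and the astrocyte label genes 5 instead of 3. Without 1 week replicate 3 the microglial list had 2 higher instead of 1. The cause was not tested. These settings were chosen after seeing the data: on primary chromosomes alone, 29917 peaks were higher and 29644 lower, and without peaks at 3 reads or fewer in all untagged libraries 29953 and 29644. Total-read scaling moved the median of all peaks from 0.02 to -0.06. Depth limits the low peaks of 1 week replicate 3, where 1 read is worth 2.20 normalised reads.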

Other observations

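Calls were spread unevenly over chromosomes. On chromosome 11, 38.9% of 5803 tested peaks were called higher and 27.2% lower, and on chromosome 19, 39.0% and 28.7% of 2394. On the other chromosomes with at least 200 tested peaks the share higher lay between 30.6% and 36.4%. Shroom3, an actin-binding gene that was chosen after its values were seen, had 30 of 38 peaks called higher and 3 lower. One of these peaks, on chromosome 5 (92763406 to 92763906), went from 8.53 ± 2.60 in NSPs to 390 ± 66.5 at 1 week. At Ccn2, which gained at an end of the gene that may not be its start, 2 of the 4 peaks in or near the gene were called lower. The lowest had a log2 fold change of -3.07.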
